A study of Mus musculus with 12 samples.

Results

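SEMA6A was added to cocultures that already held SEMA3A, and the genes of the responding splenocytes were compared with those of cocultures holding SEMA3A without it. The comparison took the 3 arrays labelled with both SEMA6A overexpression and SEMA3A protein against the 3 arrays labelled with SEMA3A protein alone, 6 of the 12 arrays of the series, and it is described across 11325 genes. Semaphorins are guidance proteins that signal through plexins, large receptors whose cytoplasmic part turns off small GTPases and so loosens adhesion and the actin skeleton. SEMA3A is secreted and reaches plexins of the A class together with neuropilins, while SEMA6A is anchored in the membrane and binds plexins of the same class directly. In T cells SEMA3A is known as a brake on activation and migration.

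All 12 cocultures held splenocytes of DBA/2 mice aged 10 weeks with KLN-205KD cells, the mouse squamous lung carcinoma line KLN-205 carrying a knockdown of SEMA3A, for 9 days with interleukin-2 at 100 units/mL every 3 days. The SEMA3A group received, on top of that coculture, purified SEMA3A protein (10 µg/mL). In the SEMA6A+SEMA3A group the same protein was added and the tumour cells also overexpressed SEMA6A, so SEMA6A was supplied by the tumour cells while SEMA3A came from the medium. The other 2 groups, used here for the contrast without SEMA3A protein, were the control with KLN-205KD cells alone and the SEMA6A group with overexpressing cells. No label says whether the replicates were separate cultures or animals, so the p-values measure only the spread between these samples, which may be technical.

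The 6 arrays had median signals between 44.2 and 53.7 and were bright for markers of cytotoxic T cells. Signals are given in the order of the replicate numbers, as deposited and before normalization. Cd8a, the CD8 alpha chain, gave 1613, 3587 and 2627 with SEMA3A and 3477, 3039 and 3881 with both factors, whereas Cd4 stayed at or under 13.0 on all 6. Only 3 of 13 B cell markers passed the filter on low signal, and Ms4a1, Cd79a and Pax5 lay under the array median on all 6. Sema6a itself, expressed by the tumour cells and measured here in splenocyte RNA, gave 16.8, 3.14 and 30.7 with SEMA3A and 44.6, 27.7 and 20.3 with both. It lay below the filter, its groups overlapped, and it checks no label. Of 28 squamous carcinoma markers on the array 11, Krt14 and Trp63 among them, were under the array median on all 6 arrays and 16 passed the filter, with mean signals of 1309 for Cdh1 and 845 for Epcam.

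At the threshold of an adjusted p of 0.05, limma called 0 of 11325 genes. The lowest adjusted p was 0.29, shared by Cpox, Nsg2, Cycs and Tra2a. At an unadjusted limma p under 0.05 there were 1270 genes, 11.2% of those tested, against 566 if p-values were spread evenly. Of these, 661 were higher with SEMA6A (5.84%) and 609 lower (5.38%). The median size of a difference was 0.15 on the log2 scale, close to the median standard error of 0.15, and only 32 genes were at least 2-fold higher (0.283%) and 32 at least 2-fold lower (0.283%). No gene therefore passed the test, and every gene below is given by its values. The arrays of the 2 groups did not overlap for 1171 higher genes (10.3%) and 1215 lower genes (10.7%). Any separation given below for a single gene belongs beside these shares.

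The count of 1270 depended on single arrays. Without SEMA3A replicate 3 it was 2038, without SEMA3A replicate 1 it was 589, without SEMA3A replicate 2 it was 756 and without SEMA6A+SEMA3A replicate 1 it was 795. Leaving out SEMA6A replicate 2, which enters only the spread, gave 1981. SEMA3A replicate 3 stood apart from its own group. Its root mean square log2 distance was 0.41 and 0.40 to the other SEMA3A arrays but 0.34, 0.35 and 0.32 to the 3 arrays with both factors. Those 3 lay between 0.31 and 0.35 from each other, and SEMA3A replicates 1 and 2 lay 0.36 apart. Counts and medians of gene lists moved with single arrays too, and a range given for a median below is over leaving out each of the 6 arrays in turn. Of all 11325 genes, 228, 341 and 947 were lower and 361, 415 and 1091 higher without SEMA3A replicates 1, 2 and 3. Without SEMA6A+SEMA3A replicates 1, 2 and 3 there were 394, 489 and 420 lower and 401, 478 and 518 higher. List counts with an array left out belong beside these counts and not beside the shares of the full fit. With limma's array weights, 620 genes passed the adjusted threshold, 296 higher and 324 lower.

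The gene with the smallest p was Cpox, coproporphyrinogen oxidase, an enzyme of haem synthesis. Its signals were 190.2, 324 and 290.0 with SEMA3A and 860.4, 793 and 654 with both factors. Every array with both factors was brighter than any SEMA3A array, a log2 difference of 1.53 ± 0.26 (± SE here and below, n = 3 and 3; limma adjusted p = 0.29). A dimmer Cpox probe set did not share it, with means of 106 and 99.6. Nsg2, a vesicle trafficking protein known from neurons, gave 72.9, 63.4 and 87.1 against 151, 162 and 156, also without overlap, and differed by 0.96 ± 0.17.

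Cycs, cytochrome c of the respiratory chain, was bright, with 15730.0, 17241 and 18949.5 in the SEMA3A arrays and 23550.4, 24748 and 22739 with both factors. All 3 of its probe sets above the filter, the kind counted here and below, were higher, and the difference of the brightest was 0.47 ± 0.09. Tra2a, a regulator of splicing, gave 3014, 2969 and 3211 against 4483, 4213 and 4462, a difference of 0.51 ± 0.09, while its 2 dimmer probe sets that passed the filter were lower, by 0.08 and 0.17. The groups of both genes were clear of each other. Qrsl1, a subunit of the mitochondrial enzyme that makes glutaminyl-tRNA, gave 742, 770.4 and 922 against 1205, 1219.8 and 1109, a difference of 0.55 ± 0.11 that both its probe sets shared in direction. Drosha, the nuclease that cuts primary microRNA transcripts, gave 1227, 1090.2 and 1168 against 1689, 2275 and 1979 and differed by 0.76 ± 0.18. The rest of the 15 genes with the smallest p on the higher side were Get1, Bclaf1, Golm2, Lypla1, Anp32b, Ipo4, Zfp62, Abtb2 and Lyrm2, with differences from 0.30 for Anp32b, a histone chaperone, to 1.29 for Abtb2.

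On the lower side the gene with the smallest p was Lgals8, galectin-8, a lectin that binds sugar chains on the cell surface. It gave 1125, 1146 and 1004 with SEMA3A and 739, 733 and 789 with both factors, without overlap, and differed by -0.51 ± 0.10 (limma adjusted p = 0.40). Its dimmer probe set, with means of 284 and 299.5, did not follow. Spop, the substrate adaptor of a ubiquitin ligase, gave 2885, 2944 and 2643 against 2140.1, 1835 and 2213 and differed by -0.45 ± 0.10, and all 3 of its probe sets were lower. For Clic4, an intracellular chloride channel protein, the signals were 6568, 6779.5 and 5496 against 4685, 4419 and 4582, a difference of -0.46 ± 0.10 shared by 3 of 3 probe sets.

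Transcription factors were among the lower genes. Hoxa9, a homeobox factor of blood progenitors, gave 60.8, 79.8 and 70.9 with SEMA3A and 13.8, 21.0 and 12.1 with both factors, a log2 difference of -1.50 ± 0.33. The arrays with both factors were all under their array's median signal for this gene, so its size is that of dim values. Runx1, a factor of blood and T cell development, was likewise dim, with 92.7, 72.8 and 50.4 against 5.87, 45.9 and 23.4 and a difference of -1.24 ± 0.32, and 3 of its 4 probe sets that passed the filter were lower and 1 higher. Atf4, the transcription factor of the amino acid and endoplasmic reticulum stress response, was bright, with 13207, 12658 and 10853 against 10038, 9829 and 9731. Its groups did not overlap and the difference was -0.32 ± 0.08, but its second probe set was higher, with means of 3993 and 4453. Rnf130, Arhgef6, Brap, Tstd3, Mars1, Ap3b1, Cox8a, Ublcp1 and Khdc3 were the rest of the 15, from -0.24 for Cox8a, a subunit of cytochrome c oxidase, to -0.98 for Khdc3.

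Among these 30 genes, 23 had more than 1 probe set above the filter. In 12 of the 23 all such probe sets lay on the same side, and in 11 they were split. The 30 were chosen for their p, with adjusted values from 0.29 to 0.40, so the clear separation of all of them is a description of the choice.

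**Figure D1:**
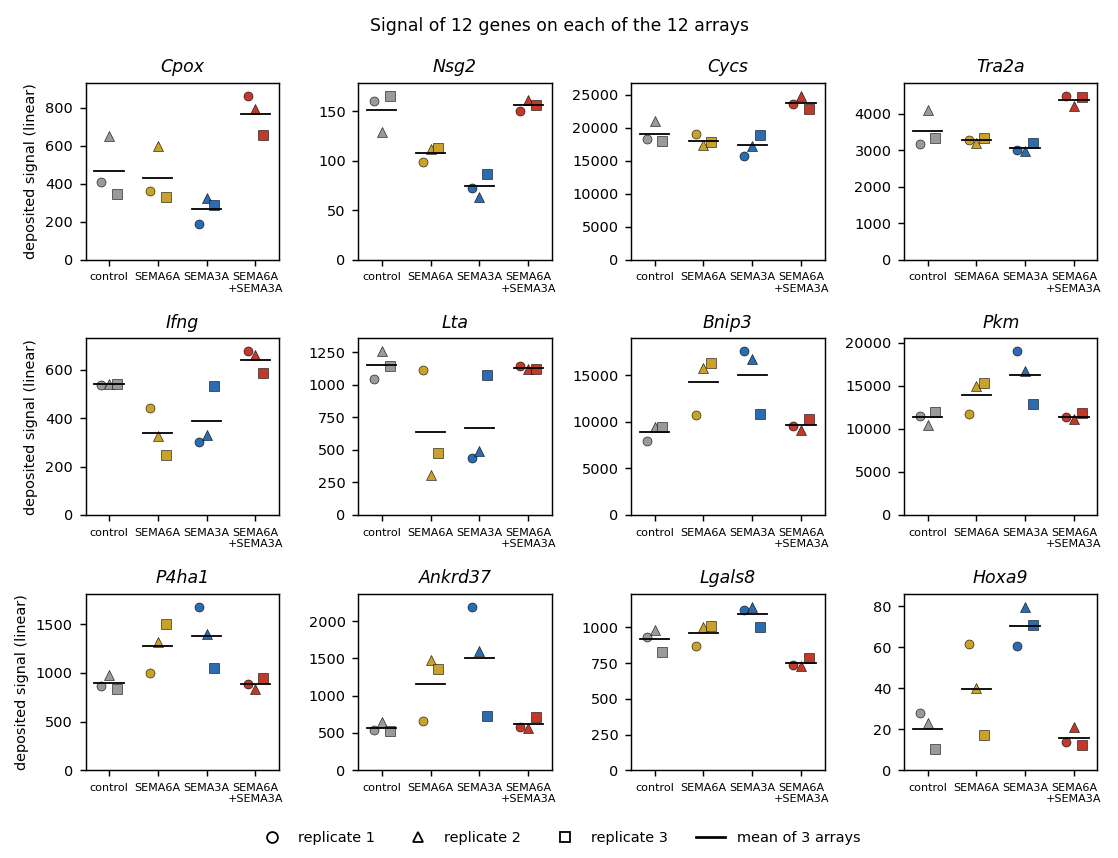
Deposited signal of 12 genes (vertical axes, linear scale from 0) on the arrays of the 4 groups, with a symbol per array by replicate number and a line at the mean of 3. Cpox, Nsg2, Cycs and Tra2a lie higher with both factors than with SEMA3A on every array, whereas for Ifng, Lta, Bnip3, Pkm, P4ha1 and Ankrd37 the SEMA3A replicate 3 array lies nearest to the arrays with both factors.

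Glycolysis enzymes and other targets of hypoxia signalling mostly lay lower when SEMA6A was added to SEMA3A. When oxygen is scarce, or when T cells are strongly activated, the factor HIF1A binds short elements in promoters and raises transcription of glucose transporters, glycolytic enzymes and genes that restrain mitochondria. Of 22 glycolysis genes 18 passed the filter, and 16 of these lay below 0, as 48.6% of all genes did, and 2 above, with a median log2 difference of -0.26 against 0.01 over all genes. Of 30 other hypoxia targets 26 passed, 23 below 0 and 3 above, with a median of -0.34. Fewer cells of a type and less RNA per cell cannot be told apart in these bulk samples. At an unadjusted limma p under 0.05, 7 glycolysis genes and 10 other targets were lower, where 5.38% of all genes were, and 1 of each list was higher, where 5.84% of all genes were.

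The elements that HIF1A is known to bind share the core letters ACGTG or GCGTG. They were searched on both strands in the 250 bases before each start in RefSeq promoters of assembly GRCm38.p6, where 18 and 26 tested members matched 17 and 23 genes by symbol. At least 1 match lay in 22 of 27 glycolysis promoters (81.5%) and in 26 of 33 promoters of the other targets (78.8%), against 38.6% of all 32851 promoters. The lists were made of glycolysis and hypoxia genes, so these shares describe the lists and not a difference between the groups. They also count members that lay higher with both factors, such as Ldhb. The letters CACGTG, the E-box that MYC is known to bind, hold ACGTG on both strands and count here too. The promoters shown are examples, of the genes with values given first below. Among promoters not shown, that of Fam162a held 6 matches, that of Ankrd37 4 and that of Ldhb 1. Pkm has 2 promoters, of which 1 held 0 matches and the other 1. Capitals mark the matches, which are letters in the reference and not measured sites, on the strand of the gene.
Bnip3, chr7:138909507-138909756, minus strand: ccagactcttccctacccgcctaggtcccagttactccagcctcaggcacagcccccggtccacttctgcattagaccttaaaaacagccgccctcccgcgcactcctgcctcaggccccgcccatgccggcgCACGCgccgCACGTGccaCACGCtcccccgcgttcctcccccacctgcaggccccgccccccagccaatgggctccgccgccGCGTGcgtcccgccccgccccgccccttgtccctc
P4ha1, chr10:59323046-59323295, plus strand: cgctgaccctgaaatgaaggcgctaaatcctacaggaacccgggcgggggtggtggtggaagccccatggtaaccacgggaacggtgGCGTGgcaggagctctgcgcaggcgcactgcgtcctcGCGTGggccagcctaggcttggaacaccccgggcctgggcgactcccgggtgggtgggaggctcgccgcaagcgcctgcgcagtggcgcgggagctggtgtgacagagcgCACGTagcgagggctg
Pgk1, chrX:106186850-106187099, plus strand: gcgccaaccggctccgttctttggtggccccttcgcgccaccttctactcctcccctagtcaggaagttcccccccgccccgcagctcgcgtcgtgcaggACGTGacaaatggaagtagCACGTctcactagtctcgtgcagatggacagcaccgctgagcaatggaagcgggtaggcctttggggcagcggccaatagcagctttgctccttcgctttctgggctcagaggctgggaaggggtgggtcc

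Bnip3, a mitochondrial protein that directs mitochondria to autophagy and whose promoter above held 5 matches, gave 17581, 16743 and 10851 with SEMA3A and 9535, 9187 and 10314 with both factors. Its groups did not overlap, but SEMA3A replicate 3 lay just above the brightest array with both. The log2 difference was -0.61 ± 0.18, with a 95% interval of -0.99 to -0.23 (limma adjusted p = 0.40). P4ha1, a prolyl hydroxylase of collagen, held 3 matches and gave 1680.0, 1399 and 1055 against 889, 831 and 946, a difference of -0.59 ± 0.17. Its second probe set was lower too.

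Pgk1, phosphoglycerate kinase, held 2 matches and gave 30816, 31396 and 26080.4 with SEMA3A and 24749, 22082 and 24751 with both factors. The difference of this bright gene was -0.25 ± 0.07, and all 3 probe sets were lower. Pkm, pyruvate kinase, the last step of glycolysis, gave 18997, 16733 and 12911 against 11383, 11118 and 11817, again without overlap, and differed by -0.47 ± 0.13. Slc2a3, the glucose transporter GLUT3, gave 20928, 18168 and 14186 against 11185, 13482 and 12409.8 and differed by -0.49 ± 0.17.

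The aldolase Aldoc had the largest glycolytic difference and the widest spread. It gave 3394, 1966 and 1280.1 with SEMA3A and 821, 986 and 943 with both factors, a difference of -1.15 ± 0.42, and both its probe sets were lower. Pfkp, a phosphofructokinase of the committed step, gave 13879, 12516 and 8439.5 against 7827, 7582 and 8361 and differed by -0.52 ± 0.20. In both genes the SEMA3A replicate 3 array was the dimmest of its group and close to the arrays with both factors. Aldoa and Pfkl differed by -0.26 ± 0.10 and -0.52 ± 0.22. Hk1, Slc2a1, Tpi1, Pgam1 and Ldha lay between -0.44 and -0.15, and none of these 5 reached an unadjusted p under 0.05. Ldhb, the lactate dehydrogenase form that favours pyruvate, lay on the other side, with 234, 268 and 211 against 357, 274 and 311, a difference of 0.41 ± 0.14, and all 3 of its probe sets above the filter were higher.

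Among the other targets, Ankrd37, an ankyrin repeat protein, showed the largest difference. It gave 2193, 1603 and 721 with SEMA3A and 582, 566 and 719.6 with both factors, a difference of -1.12 ± 0.34. The SEMA3A arrays spanned more than a 2-fold range, and the dimmest of them lay at the level of the brightest array with both. Higd1a, a small protein of the mitochondrial inner membrane, was more even, with 11429, 11664 and 10286 against 9447, 8457 and 9077 and a difference of -0.32 ± 0.10. Plod2, a lysyl hydroxylase of collagen, gave 1286, 1177 and 1085 against 878, 959.8 and 776, without overlap, and differed by -0.42 ± 0.13.

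Fam162a, Ddit4, Ero1a and Egln3 differed by -0.41 ± 0.13, -0.35 ± 0.12, -0.63 ± 0.24 and -0.65 ± 0.27. Egln3 is a prolyl hydroxylase of the family that marks HIF1A for destruction, and Ddit4 restrains the growth kinase mTOR. Mxi1, Ak4, P4ha2, Ndrg1, Narf and Pdk1 lay lower on average without reaching an unadjusted p under 0.05, from -0.85 for Mxi1 to -0.22 for Pdk1, the kinase that shuts pyruvate out of mitochondria. Vegfa, the vascular growth factor, was at 0.01 ± 0.16. Pam, an enzyme that amidates peptides, lay higher by 0.45 ± 0.19.

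**Figure D2:**
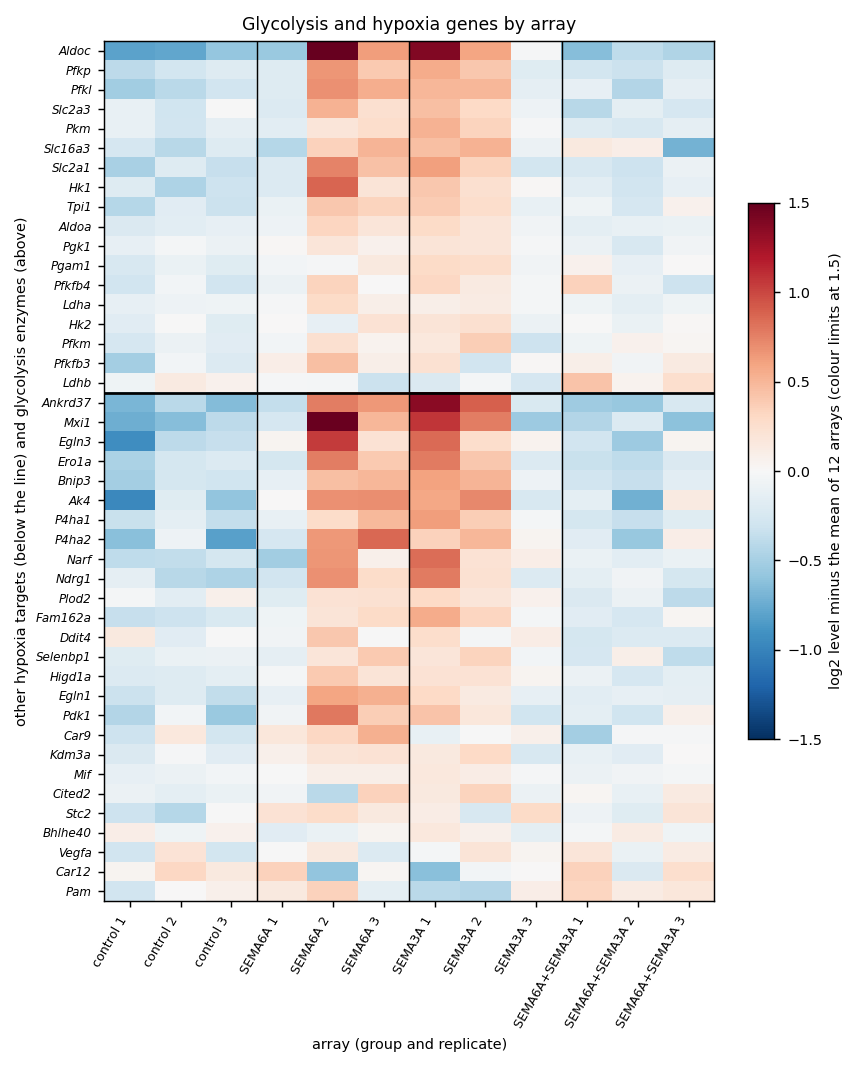
Map of 44 tested genes (rows; glycolysis enzymes above the line, other hypoxia targets below, each ordered by the difference) on the 12 arrays (columns), coloured by log2 level minus the mean of the 12 arrays, with colour limits at 1.5. The columns of SEMA3A replicates 1 and 2 and of SEMA6A replicates 2 and 3 are mostly red, while SEMA3A replicate 3 and the 3 arrays with both factors are mostly pale or blue.

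The level of the glycolysis list, the mean log2 level of its members minus the mean over 12 arrays, was 0.38, 0.26 and -0.09 on the SEMA3A arrays and -0.08, -0.17 and -0.12 with both factors, so the third SEMA3A array lay inside the range of the other group. For the other hypoxia targets the levels were 0.37, 0.25 and -0.06 against -0.15, -0.22 and -0.07, and the third array lay only just above the group with both factors. Without SEMA3A replicate 1 the medians were -0.20 and -0.27, with 2 and 5 members lower at an unadjusted p under 0.05. Without SEMA3A replicate 2 these counts were 4 and 8. Without SEMA3A replicate 3 the medians were -0.38 and -0.43, and the counts 14 and 15. Of all 11325 genes, 228, 341 and 947 were lower at that p without SEMA3A replicates 1, 2 and 3. Of the ratios taken as measures of RNA integrity, that of the transferrin receptor did not overlap between the groups. The ratio of the 3′ to the 5′ control probe set of the transferrin receptor was 17.2, 17.6 and 18.1 with SEMA3A and 12.2, 5.93 and 11.2 with both factors (exact permutation test, 2-sided, p = 0.10, the smallest that 3 against 3 allows; adjusted p = 0.65 over 13 measures). Its 5′ signals were dim, at 24.6, 29.1 and 25.3 with SEMA3A and 41.5, 73.1 and 39.3 with both, beside array medians of 44.2 to 53.7. Its 3′ signals had means of 464 and 460. The same ratio of Gapdh lay between 0.767 and 0.796 on all 6 arrays. For Actb and pyruvate carboxylase the ratios overlapped, the latter at 5.78 to 6.90 with SEMA3A and 4.36 to 5.81 with both. The part of RNA integrity in the result was not tested.

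Among the sensors of oxygen, Hif1a itself hardly differed, while the level of the list lay lower with both factors. Hif1a gave 7303, 9030.0 and 8229 with SEMA3A and 8289.6, 8065 and 8219 with both factors, with overlapping groups and a difference of -0.01 ± 0.10, a 95% interval of -0.23 to 0.21. Its direction depended on the scaling, at 0.0060 without further normalization. Hif3a, a relative that can act as an inhibitor, gave 281, 224 and 188 against 139, 157 and 164, a difference of -0.51 ± 0.16, although its second probe set lay on the other side. Vhl, which recognises hydroxylated HIF1A, differed by -0.38 ± 0.15. Of 13 oxygen sensing genes 10 lay below 0, where 48.6% of all genes did, and 3 above, with a median of -0.04. The list level was 0.089, 0.092 and 0.067 with SEMA3A and -0.055, -0.15 and -0.098 with both factors, without overlap. At an unadjusted p under 0.05, 3 genes were lower and 0 higher, against 5.38% and 5.84% of all genes. Without SEMA3A replicate 2 there was 1 lower, where 341 of all 11325 genes were.

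The same overexpression had been tested without SEMA3A protein, on 6 other arrays, and the 2 contrasts share no array. There the median of the glycolysis list was 0.31 and that of the other hypoxia targets 0.45, opposite in sign to the medians with SEMA3A. Levels were -0.33, -0.17 and -0.24 in the control and -0.08, 0.40 and 0.30 in the SEMA6A group for the other targets, the first SEMA6A array standing apart from the other 2. The interaction, the difference with SEMA3A minus that without, had medians of -0.65 and -0.77 over the 2 lists. At an unadjusted p under 0.05 13 of 18 and 21 of 26 members were lower in the interaction, where 10.2% of all genes were. SEMA6A replicate 2 differed from the other arrays in RNA integrity, with a 3′ to 5′ ratio of 1.22 for Gapdh, where the other 11 arrays had 0.767 to 0.818, of 1.23 for Actb, 35.7 for the transferrin receptor and 15.5 for pyruvate carboxylase, each the highest of the 12. The 5′ signal behind that transferrin receptor ratio was dim, at 13.2. SEMA6A replicate 3 had the next highest ratios for the transferrin receptor, at 23.3, and pyruvate carboxylase, at 10.3. The control arrays had 6.82 to 9.34 and 7.01 to 8.26, and SEMA6A replicate 1 had 8.39 and 6.86. The part of RNA integrity in the contrast without SEMA3A protein and in the interaction was not tested. The array weight of SEMA6A replicate 2 was the lowest, at 0.198. Without SEMA6A replicate 2 the medians of the 2 lists without SEMA3A protein were 0.23 and 0.36 and those of the interaction -0.56 and -0.64. At an unadjusted p under 0.05, 13 and 18 members were lower in that interaction, where 935 of all 11325 genes were.

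Bnip3 was 7921, 9431 and 9499 in the control and 10760.4, 15810.0 and 16347 with SEMA6A alone, and its interaction was -1.24 ± 0.25 (limma adjusted p = 0.20). For Aldoc, with 761, 757 and 864 in the control and 868, 3939.8 and 2024 with SEMA6A, the interaction was -2.41 ± 0.60 (limma adjusted p = 0.20). SEMA6A replicate 1 lay near the control in both genes and the other 2 arrays lay above it. Over all genes, limma called 0 interactions at an adjusted p of 0.05 (lowest 0.20), with 2037 at an unadjusted p under 0.05 (18.0%). Without SEMA6A replicate 1 the adjusted count was 1260, without SEMA3A replicate 3 it was 258, and with array weights it was 1847. Without SEMA3A replicate 1 the unadjusted count was 1304, and without SEMA6A replicate 1 it was 3392.

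Across genes, the differences with and without SEMA3A had a Pearson r of -0.37 over 11325 genes, which share arrays and normalization and are not independent replicates. Of the 1270 genes at an unadjusted p under 0.05 with SEMA3A, 905 (71.3%) had the opposite sign without it, against 63.2% of all genes. Both contrasts had 210 of them at that level, 16.5% of the list with SEMA3A and 17.7% of the list without, and 198 of the 210 were opposite in sign. Of the 30 genes named first, 19 were opposite. Cpox had no large opposite value, at -0.12 without SEMA3A, nor did Cycs, at -0.12, or Tra2a, at -0.10.

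**Figure D3:**
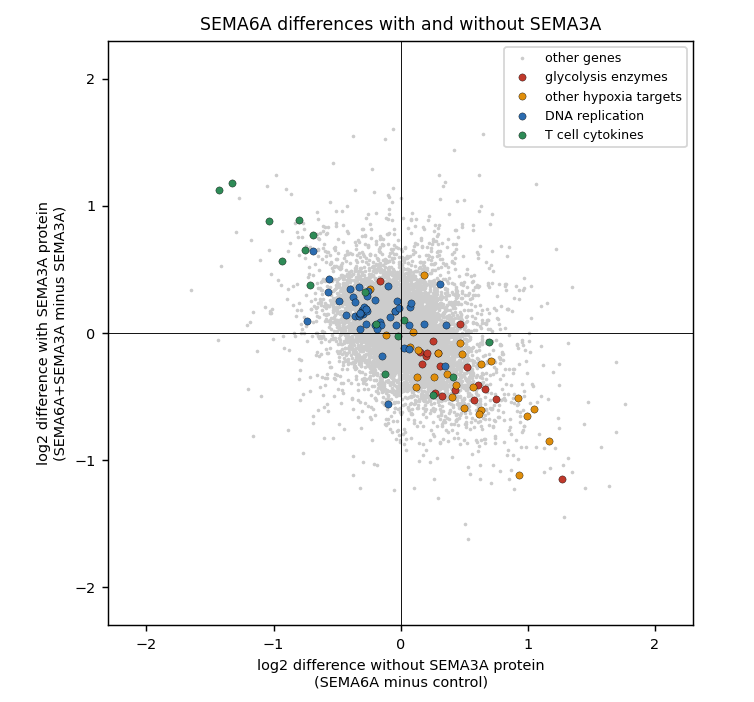
Log2 difference of each of 11325 genes with SEMA3A protein (vertical axis, SEMA6A+SEMA3A minus SEMA3A) against that without it (horizontal axis, SEMA6A minus control), a point per gene, with members of 4 lists coloured. Glycolysis and hypoxia genes lie mostly at the lower right, and DNA replication and T cell cytokine genes mostly at the upper left.

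Cytokine genes of T cells lay higher with both factors. Of 27 genes 16 passed the filter, 11 above 0 and 5 below, with a median of 0.35, and 4 were higher and 0 lower at an unadjusted p under 0.05, against 5.84% and 5.38% of all genes. Ifng, interferon gamma, the main macrophage-activating product of cytotoxic T cells, gave 302, 332 and 534 with SEMA3A and 677, 662 and 588 with both factors. All 3 arrays with both factors were brighter than any SEMA3A array, and the difference was 0.77 ± 0.22, a 95% interval of 0.29 to 1.26 (limma adjusted p = 0.40). Lta, lymphotoxin alpha, gave 439, 494 and 1075 against 1141, 1117 and 1117, a difference of 0.89 ± 0.38. Here SEMA3A replicate 3 lay just below the arrays with both factors.

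Il24, a relative of interleukin-10, gave 105, 113 and 235 against 238, 302 and 274 and differed by 0.89 ± 0.31. Tnfsf8, the ligand of CD30, differed by 0.65 ± 0.25. Csf2, the growth factor GM-CSF, and Xcl1, a chemokine that attracts cross-presenting dendritic cells, had the widest spread. Csf2 gave 193, 298 and 1134 with SEMA3A and 856, 1027 and 859 with both, Xcl1 gave 244, 549 and 1600.3 against 1230.3, 1524 and 1180.0, and in both the third SEMA3A array was the brightest of all 6. The list level was -0.47, -0.27 and 0.28 with SEMA3A and 0.15, 0.33 and 0.13 with both. Its median was 0.19 without SEMA3A replicate 1, 0.66 without replicate 3 and 0.068 with every probe set counted. As SEMA3A replicates 1, 2 and 3 were left out, 1, 2 and 9 of its genes were higher at an unadjusted p under 0.05. Of all 11325 genes, 361, 415 and 1091 were. Without SEMA3A protein the list's median was -0.48, and Ifng was 538, 541 and 543 in the control and 444, 326 and 248 with SEMA6A, an interaction of 1.46 ± 0.32 (limma adjusted p = 0.20).

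Genes switched on early after T cell receptor signals were mixed, with a median of -0.01 over 34 (between -0.042 without SEMA6A+SEMA3A replicate 2 and 0.039 without SEMA6A+SEMA3A replicate 3). Nfkbiz, an inducible NF-kappa-B regulator, gave 1253, 1378 and 1883 against 2346, 2135 and 1898 and differed by 0.52 ± 0.18. Egr3 and Cd69 differed by 0.59 ± 0.20 and 0.41 ± 0.16 and Jun, a part of the factor AP-1, by -0.35 ± 0.13. Within the list 4 genes were higher and 2 lower at an unadjusted p under 0.05, against 5.84% and 5.38% of all genes, and without SEMA3A replicate 1 both counts were 0.

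Inhibitory receptors, which restrain activated T cells, lay lower in some members, with SEMA3A replicate 3 again at the level of the other group. Lag3 gave 620.2, 646 and 209.6 with SEMA3A and 189.8, 238 and 217 with both factors, so the first 2 SEMA3A arrays were far brighter than the rest and the third was not. The difference was -0.98 ± 0.43 (limma adjusted p = 0.43). Ctla4, the competitor of CD28, gave 3410.4, 2898 and 1132 against 1140.1, 1087 and 1367, the same pattern, and differed by -0.90 ± 0.41. Pdcd1, which encodes PD-1, gave 787, 566 and 227 against 369, 272 and 338, overlapping, a difference of -0.50 ± 0.34, a 95% interval of -1.23 to 0.23.

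Cd200r1, Klrg1 and Havcr2 differed by -0.88 ± 0.41, -0.86 ± 0.41 and -0.42 ± 0.21. Cd274, the PD-1 ligand, was at 0.08 ± 0.13, and Lair1, a receptor for collagen, was at 0.38 ± 0.16 with 3 of 3 probe sets higher. Over 18 members of the list the median was -0.15 (between -0.24 without SEMA6A+SEMA3A replicate 2 and -0.088 without SEMA6A+SEMA3A replicate 1), with 2 lower and 1 higher at an unadjusted p under 0.05, against 5.38% and 5.84% of all genes. Leaving out SEMA3A replicate 3 gave 7 lower, where 947 of all 11325 genes were. Leaving out replicate 1 or replicate 2 gave 0, where 228 and 341 of all genes were lower.

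The killing machinery itself differed little. Gzmb, granzyme B, near the top of the signal range, gave 46161, 50605 and 43273 with SEMA3A and 40527, 45605 and 38556 with both factors, overlapping, a difference of -0.10 ± 0.06. Prf1, the pore protein perforin, gave 21019, 16642 and 12679 against 12945, 12424 and 11172, a difference of -0.41 ± 0.16, while a second, much dimmer probe set had means of 73.9 and 83.0. Gzmf, a granzyme of long-stimulated T cells, lay on the higher side with 10360.3, 10089 and 13609 against 19328, 16891 and 15508, a difference of 0.61 ± 0.25. Across 23 granule genes the median was -0.05 (between -0.11 without SEMA6A+SEMA3A replicate 2 and -0.021 without SEMA3A replicate 1), 1 was higher and 3 were lower at an unadjusted p under 0.05, against 5.84% and 5.38% of all genes, and without SEMA3A replicate 1 there were 0 lower.

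**Figure D4:**
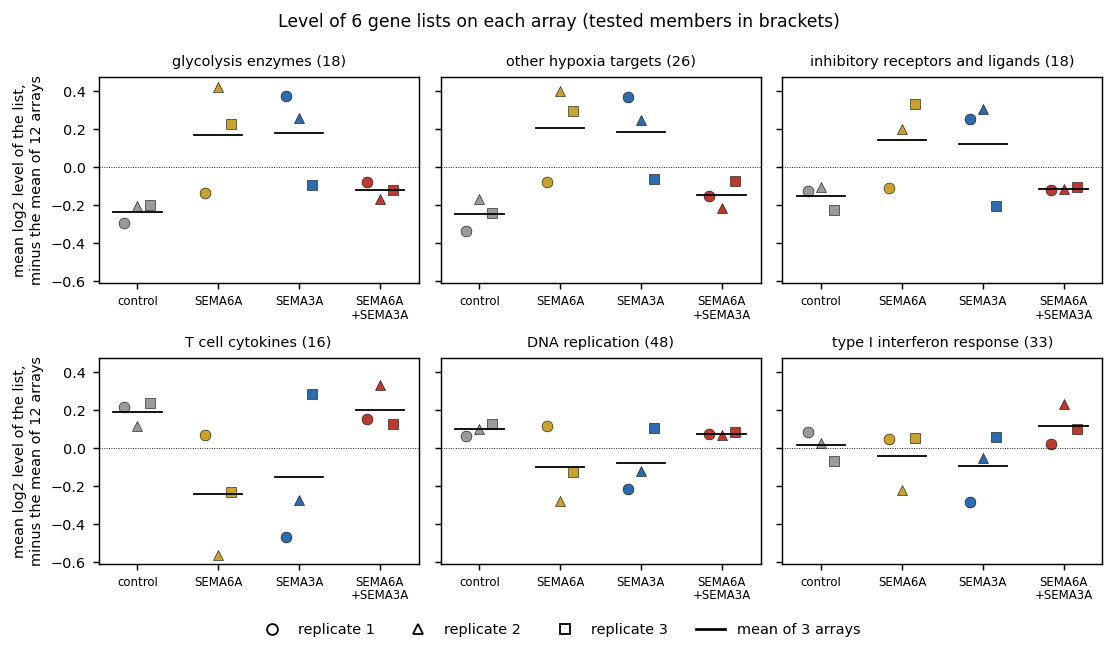
Mean log2 level of 6 gene lists minus the mean of 12 arrays (vertical axes), on each array of the 4 groups, with a symbol per replicate number and a line at the group mean. In the SEMA3A group replicate 3 lies near the arrays with both factors in all 6 lists. Replicates 1 and 2 lie together except in the type I interferon list, where replicate 2 lies nearer to replicate 3. In the SEMA6A group replicate 1 lies near the control in the glycolysis, hypoxia, inhibitory receptor and DNA replication lists.

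Interferon response genes lay mostly higher. Type I interferons are secreted signals of infection that induce antiviral genes in the cells they reach. Of 33 tested genes 22 lay above 0 and 11 below, a median of 0.20, with 4 higher and 1 lower at an unadjusted p under 0.05, against 5.84% and 5.38% of all genes. Ifih1, the sensor MDA5 of double-stranded RNA, gave 238, 221 and 206 with SEMA3A and 269, 313 and 276 with both factors, without overlap, and differed by 0.37 ± 0.13. Ifit2 gave 222, 203 and 255 against 304, 315 and 274, a difference of 0.41 ± 0.15.

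Cmpk2 and Rtp4 differed by 0.76 ± 0.26 and 1.13 ± 0.50, and Rtp4 ranged from 128 to 443 within the SEMA3A group. Samd9l, an antiviral protein that curbs translation, lay lower, with 7445, 6452 and 4089 against 3695, 3932 and 4003, a difference of -0.58 ± 0.21. The interferon element of 2 GAAA runs parted by any 2 letters, searched on both strands in the 250 bases before the start, was in 9 of 30 promoters of the list (30.0%) and in 2.98% of all promoters. This share describes the list and not a difference between the groups. The promoters of Ifih1, Ifit2, Cmpk2 and Samd9l did not hold these letters in that window. The median was 0.10 without SEMA3A replicate 1, with 2 genes higher at an unadjusted p under 0.05, where 361 of all 11325 genes were. Without SEMA3A replicate 3 or SEMA6A+SEMA3A replicate 1 there were 10 and 8, where 1091 and 401 of all genes were. Genes induced by interferon gamma had a median of 0.06 over 23 (between -0.024 without SEMA3A replicate 3 and 0.13 without SEMA3A replicate 2). Of these 14 lay above 0 and 9 below. At an unadjusted p under 0.05, 1 was higher and 0 lower, against 5.84% and 5.38% of all genes.

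Genes of DNA replication lay higher with both factors. Before a cell divides it loads helicases, unwinds DNA and copies it with polymerases, clamps and clamp loaders. Of 48 tested genes 43 lay above 0, where 51.4% of all genes did, and 5 below, with a median of 0.17 (between 0.10 without SEMA3A replicate 1 and 0.26 without SEMA3A replicate 3). Ccne2, the cyclin E2 that starts replication, gave 554, 603 and 894 with SEMA3A and 1036, 1091 and 986 with both factors, without overlap, and differed by 0.64 ± 0.19 (limma adjusted p = 0.40). Hells, a chromatin remodeller, gave 3010.2, 3212 and 3974 against 4397, 4119 and 4559.8, a difference of 0.36 ± 0.12 with all 3 probe sets higher.

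Pold2, a subunit of DNA polymerase delta, gave 1976, 2192 and 2671 against 2951, 2817 and 3064, a difference of 0.37 ± 0.13. Fen1, the nuclease that trims Okazaki fragments, and Uhrf1, which carries DNA methylation through replication, differed by 0.33 ± 0.12 and 0.25 ± 0.10, although the second probe set of Uhrf1 lay lower. Rfc2, a clamp loader subunit, was the exception with 2447, 2613 and 2869 against 1917, 1969 and 1484, a difference of -0.56 ± 0.15, while its other 2 probe sets lay higher. Mcm6, a subunit of the helicase, was at 0.06 ± 0.13. At an unadjusted p under 0.05, 9 genes were higher and 1 lower, against 5.84% and 5.38% of all genes. These were 3, 4 and 19 higher as SEMA3A replicates 1, 2 and 3 were left out, where 361, 415 and 1091 of all 11325 genes were. The list level was -0.22, -0.12 and 0.11 with SEMA3A and 0.07, 0.07 and 0.09 with both. Without SEMA3A protein the median was -0.26, and 18 of the 48 genes were higher and 2 lower in the interaction at an unadjusted p under 0.05, where 7.82% and 10.2% of all genes were. Without SEMA6A replicate 2 that median was -0.11, and without SEMA6A replicate 1 there were 29 higher in the interaction, where 1574 of all 11325 genes were.

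Genes of mitosis were closer to 0, with a median of 0.07 over 48 (between 0.047 without SEMA6A+SEMA3A replicate 3 and 0.11 without SEMA3A replicate 3), but with small standard errors. Cdc20, which activates the ubiquitin ligase that starts anaphase, gave 8177, 8279 and 8998 with SEMA3A and 10966, 10485 and 10869 with both factors. The 2 groups were apart, all 3 probe sets were higher, and the difference was 0.33 ± 0.09. Nuf2, a protein of the kinetochore, gave 1796, 1877 and 2069 against 2329.9, 2635 and 2571, a difference of 0.39 ± 0.11, and Kif18a, a motor that centres chromosomes, differed by 0.66 ± 0.18. Arrays did not overlap for 14 higher and 2 lower members, where 10.3% and 10.7% of all genes did not. Mki67, the proliferation marker Ki-67, lay on the other side of 0, at -0.10 ± 0.08.

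Mitochondrial genes lay slightly higher outside the respiratory chain. In mitochondrial translation 59 of 80 genes lay above 0, with a median of 0.09 (between 0.048 without SEMA3A replicate 1 and 0.12 without SEMA3A replicate 3), and in import and chaperones 21 of 26, with the same median to 2 decimals (between 0.053 without SEMA3A replicate 1 and 0.13 without SEMA6A+SEMA3A replicate 2). Mrps24, a protein of the mitochondrial ribosome, gave 2755, 2497 and 3134 with SEMA3A and 3500.0, 3587 and 3584 with both factors, without overlap, and differed by 0.34 ± 0.09. Clpp, a mitochondrial protease, differed by 0.38 ± 0.12 and Tomm20, the import receptor of the outer membrane, by 0.22 ± 0.08 with 6 of 6 probe sets higher. Lonp1, another mitochondrial protease, lay lower, at -0.37 ± 0.15. The 66 respiratory chain genes had a median of -0.03, so Cycs, at 0.47, was not typical of its list.

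Cpox was not typical of haem synthesis either, where the median of 17 genes was -0.03 (between -0.038 without SEMA3A replicate 2 and 0.026 without SEMA3A replicate 3). Fech, the enzyme that inserts iron in the last step, gave 763, 744 and 654 with SEMA3A and 581, 640.2 and 583 with both factors, a difference of -0.24 ± 0.11. Tfrc, the transferrin receptor that takes up iron, gave 9280.4, 9988 and 12917 against 13066, 13406 and 13192, a difference of 0.31 ± 0.12. Hmox1, which breaks haem down, differed by -0.49 ± 0.21.

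Splicing genes and MYC targets leaned upward. Of 44 splicing genes 6 were higher and 1 lower at an unadjusted p under 0.05, against 5.84% and 5.38% of all genes, with a median of 0.06 (between 0.034 without SEMA3A replicate 1 and 0.081 without SEMA3A replicate 3). Snrpf, a core protein of spliceosomal particles, gave 5173, 4226 and 5083 with SEMA3A and 6066, 5966 and 7023 with both factors and differed by 0.39 ± 0.10. Clk2, a kinase of splicing factors, was lower, at -0.23 ± 0.09. Among MYC targets and amino acid transporters, with a median of 0.10 over 35 (between 0.041 without SEMA3A replicate 1 and 0.12 without SEMA3A replicate 3), Srm and Odc1, enzymes of polyamine synthesis, differed by 0.41 ± 0.16 and 0.36 ± 0.16, and Mthfd2, a mitochondrial folate enzyme, by -0.30 ± 0.11.

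Genes of the stress response to unfolded proteins and of amino acid shortage lay lower beside Atf4. Of 29 genes 21 lay below 0, with a median of -0.08 (between -0.17 without SEMA3A replicate 3 and -0.046 without SEMA3A replicate 2), and 5 were lower and 0 higher at an unadjusted p under 0.05, against 5.38% and 5.84% of all genes. Herpud1, which helps remove misfolded proteins, gave 3325, 2871 and 2312 with SEMA3A and 2020.2, 2103 and 2131 with both factors, without overlap, a difference of -0.43 ± 0.14. Psat1, of serine synthesis, and Xbp1, a factor activated by splicing, differed by -0.32 ± 0.11 and -0.30 ± 0.11, but the second probe set of Psat1 and the other 3 of Xbp1 lay higher. Without SEMA3A replicates 1, 2 and 3 in turn the count of lower genes was 3, 2 and 9, where 228, 341 and 947 of all 11325 genes were lower.

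Cholesterol and fatty acid genes had 22 of 30 below 0, with a median of -0.12 (between -0.13 without SEMA6A+SEMA3A replicate 3 and -0.065 without SEMA3A replicate 1). Srebf2, the factor that drives cholesterol synthesis, gave 2951, 2888 and 2717 with SEMA3A and 2190.2, 2397 and 2181 with both factors. The groups were apart and the difference was -0.34 ± 0.11. Scd1, which desaturates fatty acids, differed by -0.32 ± 0.13.

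Genes of the T cell receptor and interleukin-2 pathways leaned downward in their list medians. These are RNA levels of pathway components, and signalling itself was not measured. Ptpn22, a phosphatase that damps the receptor, gave 9074, 8377 and 7021 with SEMA3A and 6047, 6856 and 5779 with both factors, without overlap, and differed by -0.39 ± 0.13. Fyn and Themis, which act just below the receptor, differed by -0.33 ± 0.12 and -0.35 ± 0.15, and Cd3d, a chain of the receptor complex, by -0.22 ± 0.10. Cd6, a coreceptor, lay on the other side at 1.06 ± 0.42, with 54.0, 78.4 and 192 against 215, 201 and 220.4. The median of 22 genes was -0.09 (between -0.14 without SEMA6A+SEMA3A replicate 2 and -0.075 without SEMA6A+SEMA3A replicate 1), with 3 lower and 1 higher at an unadjusted p under 0.05, against 5.38% and 5.84% of all genes. Without SEMA3A replicate 1, or without SEMA6A+SEMA3A replicate 3, there was 1 lower.

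Bcl2, the survival protein induced by interleukin-2, gave 10976, 10778 and 10097 with SEMA3A and 8679.8, 8516 and 9371 with both factors. All 5 of its probe sets were lower, the groups were apart, and the difference was -0.28 ± 0.09 (limma adjusted p = 0.40). Jak3 and Jak1, the kinases of the receptor, differed by -0.47 ± 0.15 and -0.30 ± 0.11, and Il2rb, its beta chain, by -0.20 ± 0.08. In this list of 25 genes 6 were lower and 0 higher at an unadjusted p under 0.05, against 5.38% and 5.84% of all genes, with a median of -0.15 (between -0.23 without SEMA3A replicate 3 and -0.074 without SEMA3A replicate 1). Without SEMA3A replicate 1 there were 3 lower, and without replicate 3 there were 10, where 228 and 947 of all 11325 genes were.

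Adhesion and lineage genes were also mostly lower. Itgb2, the shared chain of the leukocyte integrins, gave 18377, 14621 and 14599.8 with SEMA3A and 11929, 13210.5 and 11616 with both factors, a difference of -0.36 ± 0.12. Itgb3, the chain of the vitronectin receptor, gave 1808, 1335 and 976 against 842, 804 and 720.4, a difference of -0.73 ± 0.30, and neither gene overlapped. Cd44, a receptor for hyaluronan, gave 1793, 1803 and 3979 against 3774, 4204 and 3502, a difference of 0.71 ± 0.32 in which the third SEMA3A array lay inside the other group. Integrin genes had a median of -0.15 over 19 (between -0.18 without SEMA3A replicate 3 and -0.033 without SEMA3A replicate 2), and it was -0.059 without SEMA6A+SEMA3A replicate 2.

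Klf2, a factor of resting and circulating T cells, gave 213, 304 and 160.1 with SEMA3A and 152, 117 and 111 with both factors, a difference of -0.71 ± 0.19. Foxo3 gave 864, 915 and 889 against 529.6, 700.0 and 608, also without overlap, and differed by -0.52 ± 0.21. Batf3, an AP-1 partner, lay higher with 122, 133 and 172 against 263, 254 and 233, a difference of 0.79 ± 0.29. Over 33 lineage factors, Hoxa9 and Runx1 among them, 22 lay below 0 and the median was -0.14 (between -0.14 without SEMA6A+SEMA3A replicate 2 and -0.0093 without SEMA3A replicate 1). It was also nearer 0 without SEMA6A+SEMA3A replicate 3, at -0.016, and without SEMA6A+SEMA3A replicate 1, at -0.053.

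Receptors for semaphorins were dim, and 24 of 39 passed the filter. Plxna1, a plexin of the A class, gave 76.1, 35.6 and 70.3 with SEMA3A and 105, 117 and 80.8 with both factors, and the groups did not overlap. The difference was 0.66 ± 0.25 (limma adjusted p = 0.40). Nrp1, the neuropilin that binds SEMA3A, gave 64.6, 40.9 and 109 against 79.6, 133 and 83.6, overlapping, a difference of 0.44 ± 0.31. Plxna4, a receptor of both semaphorins, gave 6.15, 77.2 and 68.8 against 95.6, 65.6 and 55.0, and its difference of 0.60 ± 0.47 was -0.075 without SEMA3A replicate 1. Plxna2, with at most 47.6 on these arrays, and Sema3a, with at most 43.9, were below the filter.

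Below the plexins, genes of the cytoskeleton leaned downward, with 27 of 35 under 0 and a median of -0.08. Limk2, a kinase that stabilises actin, gave 741, 731 and 511 with SEMA3A and 410.1, 417 and 478 with both factors. Its groups did not overlap, its 3 probe sets were all lower, and the difference was -0.56 ± 0.18. Rac1, a small GTPase of the cell's leading edge, differed by -0.18 ± 0.07. At an unadjusted p under 0.05, 3 genes were lower and 0 higher, against 5.38% and 5.84% of all genes, and without SEMA3A replicate 1 there was 1 lower.

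The last 4 lists had small medians. Killer cell receptors had a median of -0.03 over 17, chemokines and their receptors -0.10 over 18, survival and death genes -0.11 over 26, and class I presentation -0.06 over 16. The chemokine median took both signs, between -0.11 without SEMA6A+SEMA3A replicate 2 and 0.062 without SEMA6A+SEMA3A replicate 1, and was 0.012 without SEMA3A replicate 3. So did that of killer cell receptors, between -0.078 without SEMA6A+SEMA3A replicate 3 and 0.013 without SEMA3A replicate 3. Survival and death genes lay between -0.15 without SEMA3A replicate 2 and -0.051 without SEMA3A replicate 1, and class I presentation between -0.076 without SEMA3A replicate 1 and -0.028 without SEMA3A replicate 2. Ncr1, an activating receptor of natural killer cells, was the killer cell gene with the smallest p, with 180.0, 117 and 170.1 against 80.8, 133 and 43.0, overlapping, and differed by -0.82 ± 0.30.

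Markers of other cell types also differed between arrays. Summed signals, which include genes below the filter, were 5609 to 8301 with SEMA3A for the 20 macrophage markers on the array (8 tested of 22). With both factors they were 4650 to 5326, with C1qa, Mrc1 and Apoe under the array median on all 6. The 16 neutrophil markers on the array (3 tested of 19) summed to 1034 to 1919 against 1077 to 1401. The 14 mast cell markers on the array (5 tested of 16) summed to 3271 to 5817 against 2908 to 3500. Neutrophil list levels were 0.57, 0.87 and -0.45 with SEMA3A and -0.32, -0.13 and -0.39 with both, with SEMA3A replicate 3 lowest of its group, as in the glycolysis list. For 16 tested squamous carcinoma markers of 30 the levels were 0.15, 0.29 and -0.30 against -0.09, -0.23 and -0.08. Fibroblast markers, 4 tested of 12, were the marker list whose levels did not overlap, at -0.026, -0.21 and 0.015 with SEMA3A and 0.048, 0.050 and 0.19 with both (exact permutation test, 2-sided, p = 0.10; adjusted p = 0.65 over 13 measures). Without SEMA3A protein they separated the other way, at 0.17, 0.17 and 0.35 in the control and -0.098, -0.58 and -0.080 with SEMA6A. Summed signals of all 12 fibroblast markers, of which Thy1, also a T cell gene, is the brightest part, overlapped at 20638 to 25297 with SEMA3A and 23789 to 26015 with both. Col1a1, Col3a1 and Dcn were under the array median on all 6. The part of other cells in the results was not tested.

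**Figure D5:**
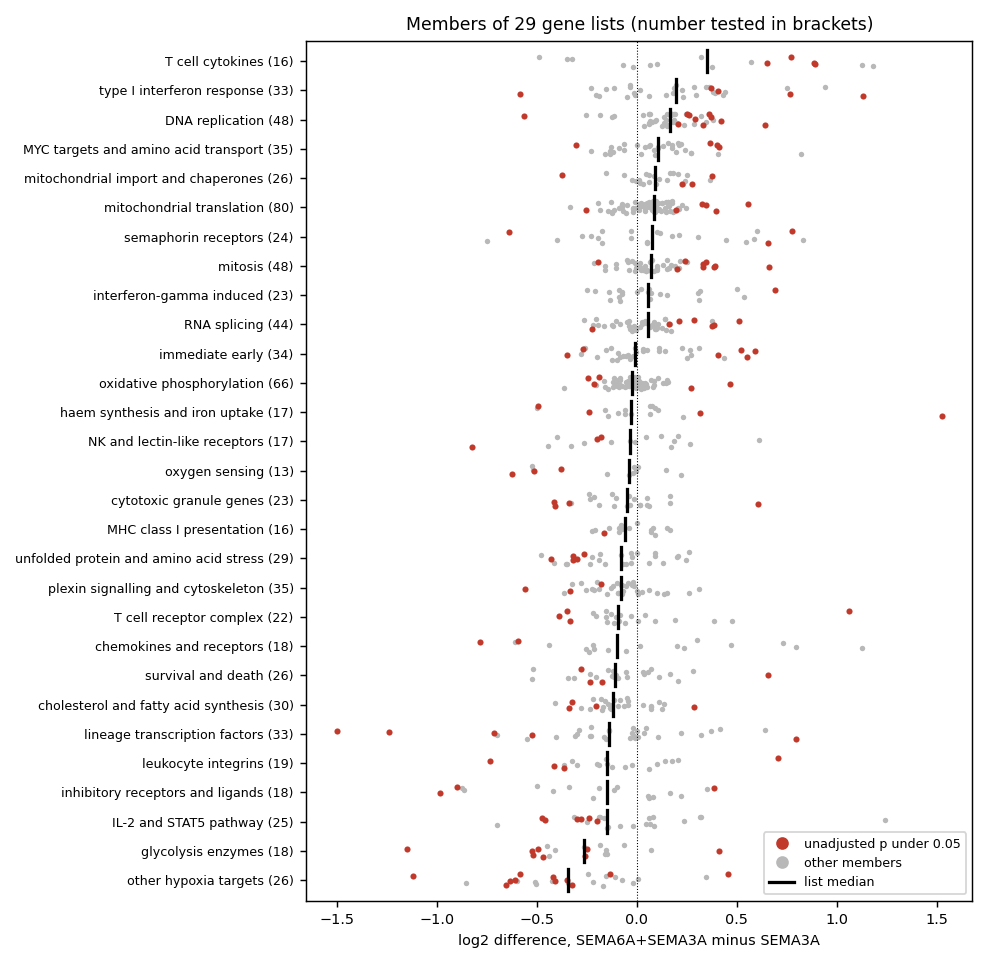
Log2 difference (SEMA6A+SEMA3A minus SEMA3A, horizontal axis) of each tested member of 29 gene lists, ordered by list median (black bar), with members at an unadjusted p under 0.05 in red. The medians run from -0.34 for other hypoxia targets to 0.35 for T cell cytokines, and members lie on both sides of 0 in each of the 29 lists.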

How the data were processed

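RNA was measured on 12 single-colour arrays, from 6 µg of total RNA each per the labels' protocols. The authors deposited 1 linear intensity for each probe set. The submitters' processing notes name MAS5, with no version given in the sources used here. The trimmed mean of every array (2% off each end) was 500 in the deposited intensities. Scanner files were not used, and precision is limited by the number of arrays.

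Of 45101 probe sets, 34945 named 1 gene, 932 several and 9160 none. Signals were taken as log2(signal + 16), which understates changes of dim genes, and quantile normalized, since array medians differed by a factor of 1.26. Probe sets above their array's median on at least 3 arrays were kept (24366), and the brightest one per gene was used (11325 of 18193 genes). limma 3.58.1 in R 4.3.3 fitted 1 mean per group over all 12 arrays with a trended eBayes prior, and p-values were adjusted by Benjamini-Hochberg over all genes at 0.05. The median 95% interval reached 0.33 to each side. Single array measures were compared by exact permutation with numpy 2.4.6.

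The genes named are the 15 of smallest p on each side (clones, predicted genes and receptor segments left out), up to 6 of smallest p in each list described, and a panel of semaphorin, T cell and cycle genes. List members outside this rule were chosen after their values were seen. The members and the 29 gene lists and 8 marker lists were chosen with earlier results of these data known.

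The fit was also tested on 20 simulated data sets, each with 200 of 11325 genes changed in this comparison. In these simulated data recovery was 46.3% at 1.5-fold, 81.5% at 2-fold and 98.4% at 4-fold, and 4.52% of calls were false. The measured arrays differed in spread, with array weights from 0.198 for SEMA6A replicate 2 to 2.15 for SEMA6A+SEMA3A replicate 1. Whether the simulated rates carry over to arrays of such unequal spread was not tested. The alternatives were other pseudocounts, filters, normalization, probe set choices, arrays, priors, array weights, a replicate block and leaving out each array.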

Additional observations from a re-analysis of the deposited data

Results flagged for a closer look

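For 3 of the 29 gene lists and 1 of the 8 marker lists the arrays of the groups did not overlap in list level, higher on one side with SEMA3A protein and on the other without it. A list level is the mean log2 level of a list's tested members. The level of the other hypoxia targets was lower with SEMA6A where SEMA3A was present and higher where it was absent, and the difference between these differences was -0.79. SEMA3A replicate 3, at -0.062, lay only just above SEMA6A+SEMA3A replicate 3, at -0.073. For genes of oxidative phosphorylation the difference between the differences was -0.051, and for cholesterol and fatty acid synthesis -0.23, each in the same order. Without SEMA3A protein the gap of oxidative phosphorylation was narrow, from -0.0124 in control replicate 3 to -0.0115 in SEMA6A replicate 1. The level over all genes tested did not overlap in that contrast either. It was -0.026, -0.019 and -0.0055 in the control and -0.0029, 0.031 and 0.00093 with SEMA6A. For the 4 tested fibroblast markers the difference between the differences was 0.65, in the reverse order, higher with SEMA6A where SEMA3A was present. The difference between the contrasts was not tested for the list levels.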

How the results depend on the processing

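Sets of 3 arrays, spread between SEMA3A replicates and dim signals limit these results. The count of 0 genes at an adjusted p of 0.05 became 620 with array weights and stayed 0 in the other alternatives. The 1270 genes at an unadjusted p under 0.05 became 3070 with array weights, 2313 with every probe set counted (20643 tested) and 1907 with only the 6 arrays compared. The 0 interactions became 1847 with array weights. Leaving out each array gave 0 to 0 adjusted calls, 589 to 2038 at an unadjusted p under 0.05, of which 61.3% were higher without SEMA3A replicate 1 against 52.0% with all arrays, and 0 to 1260 adjusted interactions. The cytokine median lay between 0.068 with every probe set counted and 0.66 without SEMA3A replicate 3, and was 0.19 without SEMA3A replicate 1. Of 29 list medians 22 kept their sign in every alternative and 7 did not. The cause of these shifts was not tested.

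Replicate numbers did not pair the samples: deviations of same-numbered arrays from their group means correlated at -0.09, -0.12 and -0.02 in the groups compared. With a replicate block limma called 0 genes and 0 interactions at the adjusted threshold and 1022 genes at an unadjusted p under 0.05. With the block over only the 6 arrays, chosen after seeing the data, the counts were 0 and 1656.

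Signs turned when the probe set of largest interquartile range stood for the gene in Lypla1 (-0.21), Lyrm2 (-0.089), Rnf130 (0.59), Atf4 (0.17), Cox8a (0.30), Runx1 (0.60), Prf1 (0.14), Hif1a (0.31), Uhrf1 (-0.19), Mrpl51 (-0.013), Timm22 (-0.13) and Hif3a (0.44). Hif1a was 0.0060 without further normalization. Leaving out each SEMA3A or SEMA6A+SEMA3A array put Hif1a between -0.088 and 0.065, Plxna4 between -0.075 and 0.94 and Cd274 between -0.029 and 0.16. In the other 3675 of 3691 gene values the sign held, and 97 passed the adjusted threshold, all with array weights.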
